A study of Mus musculus with 3 samples.

Results

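The common gamma-chain and IL-6 receptor set holds 8 genes that encode cytokine receptor chains, chosen by name from the 23337 gene symbols of the series: Il2rg, Il2rb, Il7r, Il4ra, Il21r, Il15ra, Il6ra and Il6st. Each had a value in all 3 libraries, and where a symbol was listed more than once the most abundant entry was used. The cells are CD4+ T cells of wild-type C57/Bl6j mice aged 7 weeks, and their label is Th1, a helper subset defined by interferon gamma production. The tumour group is 1 library of cells from B16-F10, a transplantable melanoma of that mouse strain. The lymphoid group is 2 libraries titled as spleen, for which the tissue field adds lymph nodes and draining lymph nodes. No treatment and no engineered allele is named for either group, and whether libraries came from separate animals or from pools is not given, so p-values reflect the spread among these libraries alone, and that spread may be technical.

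Most of these receptors are built around a shared chain. The common gamma chain, encoded by Il2rg, is part of the receptors for IL-2, IL-4, IL-7, IL-15 and IL-21, which keep T cells alive and steer their growth and differentiation. It binds the kinase JAK3, and the ligand-specific chain beside it binds JAK1. IL-6 instead binds IL-6 receptor alpha, encoded by Il6ra, which recruits gp130, the signalling chain encoded by Il6st. These complexes activate STAT proteins, among them STAT5, STAT6 and STAT3, and the resulting SOCS proteins feed back on the receptors.

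The labelled cell type was checked against its markers. Cd4 was at 73.9 scaled FPKM in the tumour library and at 67.9 and 59.3 in lymphoid libraries 1 and 2, and Cd3e, a chain of the T cell receptor complex, at 111 in tumour against 126 and 106 in lymphoid libraries. Tbx21, which encodes the Th1 regulator T-bet, was at 12.9 in tumour against 18.01 and 20.2. Ifng, which encodes interferon gamma, was at 4.53 in tumour against 12.9 and 12.0, and by the fit described next it was called lower (log2 difference -1.28, limma adjusted p = 0.0115, and 0.240 with counting error). Scaled FPKM are fragments per kilobase of transcript, normalised for library depth, divided by a median-of-ratios factor of 0.579 for the tumour library and of 1.29 and 1.33 for lymphoid libraries 1 and 2. The unit FPKM is inferred, since the files do not name it. Depth was estimated from the value of FPKM times kilobases that the most genes of low level share, taken as 1 fragment. It was about 3270000 fragments in tumour and 11400000 and 15420000 in the lymphoid libraries, so tumour values carry more counting error. The fit was limma on log2(scaled FPKM + 1) over the 10004 genes with a mean of at least 1 scaled FPKM, with a call at a Benjamini-Hochberg adjusted p under 0.05. A difference on this scale understates the change of low genes. The spread comes from the 2 lymphoid libraries alone, with 1 residual degree of freedom, and the lone tumour library is assumed to vary like them. Of the genes tested, 14.0% were called higher and 6.71% lower in tumour, 20.7% in all, so that 67.6% of calls were higher. That share was 5.75% with values as deposited, 95.2% with library totals, 37.5% with size factors taken over all symbols, 90.3% with no filter, 97.5% with counting error added and 90.4% with counting error and a filter on deposited values.

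Among the 8 receptor genes, 2 rose in the tumour library, Il21r and Il4ra, against 14.0% of all genes tested. By limma 0 fell, against a background of 6.71%, and 0 were lower at an unadjusted p under 0.05. The share of all genes at that unadjusted threshold was not counted, here or for the lists below. All 8 passed the filter on low values, each with a lymphoid mean above 1 scaled FPKM. Their median log2 difference was 0.04, and that of all genes tested 0.02. The tumour value lay above both lymphoid values for 2 of them, between the lymphoid values for 4 and below both for 2, while 43.7%, 15.6% and 40.7% of all genes tested lay in these places. By fold, 2 of the 8 were at least 2-fold above both lymphoid libraries, against 11.7% of all genes tested, and 0 were at least 2-fold below both, against 5.63%. In these bulk samples, fewer cells that express a gene and less RNA of it per cell cannot be told apart.

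**Figure D1:**
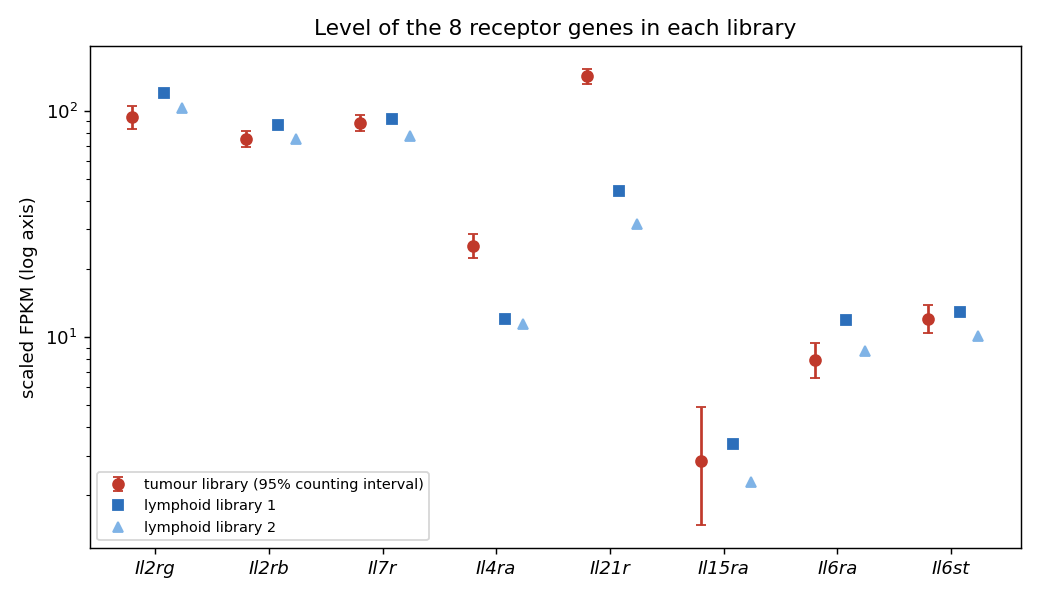
Scaled FPKM (log axis) of the 8 receptor genes, with the tumour library as a circle with its 95% counting interval and lymphoid libraries 1 and 2 as a square and a triangle. Il21r, at 143 in tumour against 44.4 and 31.8, and Il4ra, at 25.4 against 12.0 and 11.5, are the genes whose tumour point stands clear above both lymphoid points.

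Il21r encodes the ligand-specific chain of the IL-21 receptor, which with the common gamma chain signals mainly through STAT3. Il21r was at 143 scaled FPKM in the tumour library, against 44.4 and 31.8 in lymphoid libraries 1 and 2 (mean 38.1 ± 8.91, SD, n = 2). The tumour value is above both lymphoid ones, by 3.21-fold and 4.49-fold. The log2 difference was 1.90 (SE 0.26, 95% interval 1.19 to 2.61, limma adjusted p = 0.0168). About 675 tumour fragments stood behind it, which gives a 95% Poisson interval of 132 to 154 scaled FPKM for the tumour level. This and the other such intervals cover counting error only. Il21r is also the one receptor gene of the 8 whose deposited value, before any scaling, was higher in tumour, at 82.6 FPKM against 57.4 and 42.4 FPKM in the lymphoid libraries.

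Il4ra encodes the alpha chain of the IL-4 receptor, which signals through STAT6 and with another partner chain also binds IL-13. Il4ra was at 25.4 scaled FPKM in the tumour library, against 12.0 and 11.5 in the lymphoid libraries (mean 11.7 ± 0.395, SD, n = 2). The lymphoid libraries lay close together, and tumour was 2.12-fold and 2.22-fold above them. The log2 difference was 1.05 (SE 0.15, 95% interval 0.65 to 1.46, limma adjusted p = 0.0182), with about 253 tumour fragments behind the tumour level. In deposited FPKM the gene was at 14.7 in tumour against 15.5 and 15.3 in the lymphoid libraries, and its call depends on the scaling (log2 difference -0.061, adjusted p = 0.729 as deposited).

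Adding the tumour library's counting error widened the standard errors a little, to 0.26 for Il21r and 0.17 for Il4ra. The adjusted p then rose to 0.0654 for Il21r and to 0.0828 for Il4ra, and 0 of the 8 genes were called, while 153 genes, or 1.54% of those tested, were called higher and 0.0403% lower. When genes were instead kept by their deposited mean, an alternative chosen after the data were seen, Il21r (adjusted p = 0.0210) and Il4ra (adjusted p = 0.0445) were called together with that error, among 368 genes called higher (3.79%), against 0.401% called lower.

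**Figure D2:**
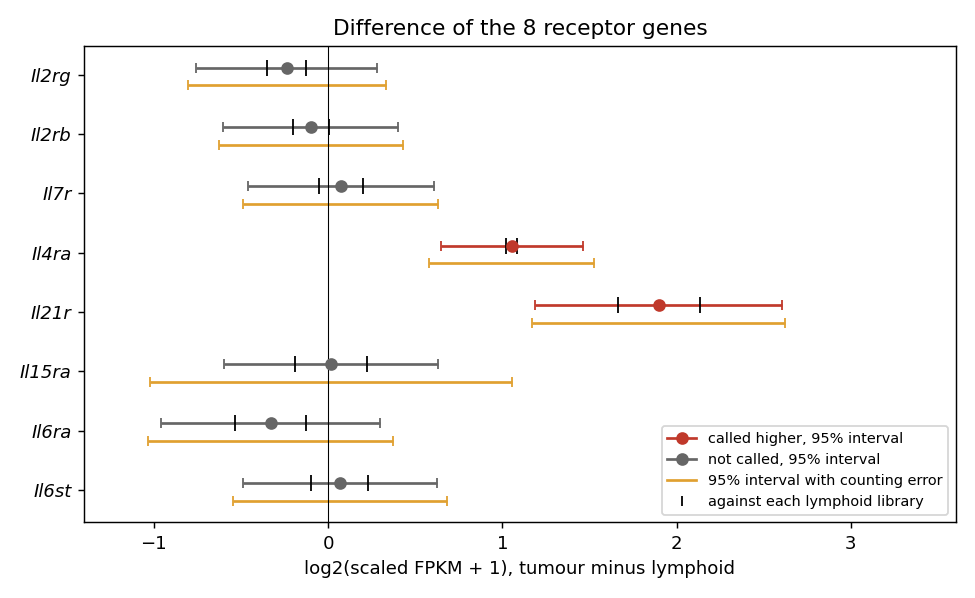
Log2 difference in scaled FPKM + 1, tumour minus lymphoid, of the 8 receptor genes, with 95% intervals without (circles) and with (lines below them) counting error, and ticks for the difference from each lymphoid library. The intervals of Il21r (1.19 to 2.61) and Il4ra (0.65 to 1.46) lie above 0 and the other 6 span it.

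The genes that rose are neighbours on chromosome 7. In GENCODE M21 coordinates (GRCm38, the assembly of mm10), Il4ra (ENSMUSG00000030748.9) spans 125552120 to 125579474 and Il21r (ENSMUSG00000030745.9) spans 125603429 to 125633570, both on the plus strand. The gap between them is 23954 bp and holds 0 of the genes measured. The nearest tested gene before Il4ra, the SMC5-SMC6 complex gene Nsmce1, was at 16.1 scaled FPKM in tumour against 10.7 and 11.4 in lymphoid libraries and was not called (log2 difference 0.50, limma adjusted p = 0.0909). The nearest tested gene after Il21r, the RNA polymerase III factor gene Gtf3c1, was at 7.96 in tumour against 5.93 and 6.85 and was not called (log2 difference 0.28, limma adjusted p = 0.282). Further out, Hs3st4 before Nsmce1 (log2 difference 2.48, limma adjusted p = 0.00537) and Gsg1l after Gtf3c1 (2.08, limma adjusted p = 0.00290) were called higher. Hs3st4 ends at 124398989 and Gsg1l starts at 125878420, both further from the pair than the 23954 bp between Il4ra and Il21r. Gsg1l passed the filter only through its tumour value, and D430042O09Rik, between Gtf3c1 and Gsg1l, was not called. These flanking genes, and the position itself, were looked up after the values of Il4ra and Il21r were known.

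The promoter windows of these neighbours are shown because their genes rose together. Each holds 250 bases before to 50 after the RefSeq start on the plus strand of GRCm38.p6, with motif matches in capitals: Il4ra at chr7:125552021-125552320 and Il21r at chr7:125603179-125603478.
Il4ra: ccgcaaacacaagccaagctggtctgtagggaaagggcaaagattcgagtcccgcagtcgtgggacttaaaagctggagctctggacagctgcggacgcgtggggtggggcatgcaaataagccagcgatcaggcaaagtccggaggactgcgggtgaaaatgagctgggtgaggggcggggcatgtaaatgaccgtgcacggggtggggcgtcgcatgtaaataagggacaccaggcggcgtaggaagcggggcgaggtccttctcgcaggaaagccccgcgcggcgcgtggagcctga
Il21r: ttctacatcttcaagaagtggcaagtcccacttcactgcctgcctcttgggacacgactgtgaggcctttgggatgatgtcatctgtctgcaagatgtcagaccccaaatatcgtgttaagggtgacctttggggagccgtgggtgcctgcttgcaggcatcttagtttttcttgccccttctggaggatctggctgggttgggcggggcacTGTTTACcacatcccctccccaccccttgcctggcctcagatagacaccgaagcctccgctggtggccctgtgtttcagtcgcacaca
RefSeq windows were matched for 7 of the 8 genes. Each was searched on both strands for the STAT motif TTCNNNGAA, the AP-1 motif TGANTCA, an interferon regulatory factor motif (GAAA, 2 free bases, GAAA) and the forkhead motif GTAAACA, which are in 8.30%, 7.81%, 3.44% and 3.65% of all 32851 promoter windows of that length. The Il4ra window holds 0 matches. The Il21r window holds 1, TGTTTAC, the forkhead motif read on the other strand. Il7r holds 1 STAT match, TTCAGGGAA, and 1 of the 2 Il15ra windows holds 1 AP-1 match, TGAGTCA. No motif overlaps another in these windows, and a match is a description of letters only.

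The shared chain gene Il2rg, with Il2rb and Il7r, was the most abundant of the set in lymphoid cells, and none of them was called. Il2rg, the common gamma chain, was at 94.0 scaled FPKM in the tumour library, against 119.9 and 103 in the lymphoid libraries. The tumour value is below both lymphoid values, with a 95% interval that spans 0 (log2 difference -0.24, 95% interval -0.76 to 0.28, limma adjusted p = 0.416). Il2rb, the signalling chain for IL-2 and IL-15, was at 75.4 in tumour, against 86.9 and 75.2. That places tumour between the lymphoid libraries (log2 difference -0.10, 95% interval -0.60 to 0.40, limma adjusted p = 0.730). Il7r, which marks naive and memory T cells and falls when they are activated, was at 88.9 in tumour, against 92.3 and 77.4, again between them (log2 difference 0.07, 95% interval -0.46 to 0.61, limma adjusted p = 0.816).

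Il15ra encodes the high-affinity chain that presents IL-15 to the other chains. It was the least abundant of the 8, at 2.83 scaled FPKM in the tumour library, against 3.37 and 2.29 in the lymphoid libraries. About 12 tumour fragments stood behind its level, with a 95% Poisson interval of 1.48 to 4.90 scaled FPKM. Its log2 difference was 0.016 (95% interval -0.60 to 0.63, limma adjusted p = 0.966). With counting error added, the 95% interval was -1.02 to 1.06, which reaches the size of the difference in Il4ra. With that error, a difference of that size is thus not excluded.

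Neither chain of the IL-6 receptor was called. Il6ra, which binds IL-6, was at 7.92 scaled FPKM in the tumour library, against 11.9 and 8.74 in the lymphoid libraries. It was below both (log2 difference -0.33, 95% interval -0.96 to 0.30, limma adjusted p = 0.355), and the lymphoid libraries themselves differed by more than tumour and lymphoid library 2 did. Il6st, which encodes gp130, was at 12.0 in tumour, against 12.9 and 10.1, and lay between them (log2 difference 0.07, 95% interval -0.49 to 0.62, limma adjusted p = 0.837). The intervals of the 6 uncalled genes do not show that their levels were equal.

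The order of the levels differed at the top. In the tumour library Il21r came first, then Il2rg, Il7r, Il2rb, Il4ra, Il6st, Il6ra and Il15ra. The 95% counting intervals of Il2rg (83.6 to 105 scaled FPKM) and Il7r (81.9 to 96.3) overlap there, and that of Il2rb (69.5 to 81.7) ends just below Il7r. In both lymphoid libraries Il2rg came first, then Il7r, Il2rb and Il21r. The means of Il7r and Il2rb there, 84.8 ± 10.5 and 81.1 ± 8.21 (SD, n = 2), differ by less than their spread. Below Il21r, Il4ra and Il6st traded places between the lymphoid libraries, while Il15ra was last in all 3. By FPKM, Il21r made up 31.8% of the summed level of the 8 genes in tumour, against 11.6% and 9.93% in the lymphoid libraries. Il2rg made up 20.9% in tumour, against 31.3% and 32.2%.

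In the same annotation Il2rg (ENSMUSG00000031304.18) lies on chromosome X from 101264378 to 101268255. Il2rb (ENSMUSG00000068227.9) spans 78479256 to 78495271 and Il7r (ENSMUSG00000003882.5) spans 9505788 to 9530176, both on chromosome 15. Il15ra (ENSMUSG00000023206.16) lies on chromosome 2 from 11705290 to 11734317, Il6ra (ENSMUSG00000027947.11) on chromosome 3 from 89864059 to 89913196 and Il6st (ENSMUSG00000021756.12) on chromosome 13 from 112464070 to 112510086.

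Ratios between chains within a library do not depend on the scaling. The Il21r/Il2rg ratio of deposited FPKM was 1.52 in the tumour library, against 0.370 and 0.309 in the lymphoid libraries. Tumour was thus 4.10-fold and 4.91-fold above them, the largest such gap of the 6 ratios plotted. The Il4ra/Il2rg ratio was 0.270 in tumour, against 0.1001 and 0.111, and the Il4ra/Il2rb ratio 0.337 against 0.138 and 0.152. The Il7r/Il2rg ratio was 0.945 in tumour, against 0.769 and 0.752, and the Il2rb/Il2rg ratio 0.802 against 0.724 and 0.732. In these last ratios tumour was at most 1.26-fold above a lymphoid library. The Il6ra/Il6st ratio was lower in tumour, at 0.657 against 0.920 and 0.864. Within the pair that rose, the Il21r/Il4ra ratio was 5.61 in tumour, against 3.69 and 2.77. With 1 tumour library no test of a ratio was made, and a ratio shows unequal levels, not which of its genes moved.

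**Figure D3:**
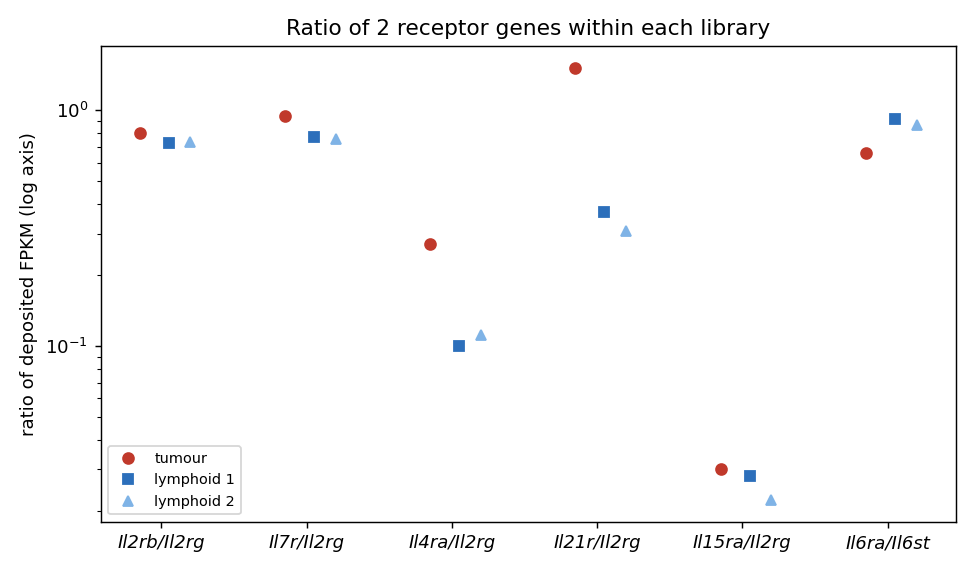
Ratio of deposited FPKM (log axis) of chains that pair with each other, within the tumour library (circle) and lymphoid libraries 1 (square) and 2 (triangle). Il21r/Il2rg is 1.52 in tumour against 0.370 and 0.309, Il4ra/Il2rg is 0.270 against 0.1001 and 0.111, and the others lie closer together.

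The genes most like the called receptors were sought by Euclidean distance over the 3 libraries in log2(scaled FPKM + 1), among 9279 other tested genes not named by clone or model. Among 2546 genes with a lymphoid mean of at least 10 scaled FPKM, Il21r ranked 28th and Il4ra 53rd by log2 difference. Closest to Il4ra were Ssh2 (distance 0.10), Gna13 (0.22) and Slc3a2 (0.24), with 29 genes within a distance of 0.5. Closest to Il21r were Ceacam20 (distance 0.15), Tfap2a (0.21) and the interferon gamma receptor gene Ifngr1 (0.28), with 4 genes within 0.5. With 3 libraries, likeness of this kind is weak, and it was measured on the values that made the calls.

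The set's partners in other receptors were mostly not called. Of 10 further chains of these families, 5 were tested, and 1 was higher and 0 lower by limma, against 14.0% and 6.71% of all genes tested (2 higher and 0 lower at an unadjusted p under 0.05). Il2ra, the chain that gives the IL-2 receptor its high affinity, was at 11.7 scaled FPKM in the tumour library, against 14.4 and 13.5 in the lymphoid libraries, and was not called (log2 difference -0.23, limma adjusted p = 0.322). Il27ra, which pairs with gp130 in the IL-27 receptor, was at 18.1 in tumour, against 26.1 and 23.3, and was not called (limma adjusted p = 0.147). The called gene was Cntfr, a neural receptor chain that also works with gp130, at 10.3 in tumour against 0.102 and 0.0244. It passed the filter only through its tumour value and therefore had to differ.

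Few of the cytokines themselves were measured above the filter. Of 17 ligand genes 5 were tested, and 2 were higher and 1 lower, against 14.0% and 6.71% of all genes tested. Il21, the ligand of the receptor that rose most, was at 2.27 scaled FPKM in the tumour library, against 0.447 and 0.349 in the lymphoid libraries (log2 difference 1.23, limma adjusted p = 0.00658). It rested on about 13 tumour fragments and passed the filter only through its tumour value. In the fit with counting error it missed the threshold (adjusted p = 0.165). Clcf1, a ligand of the gp130 family, was at 9.06 in tumour, against 5.37 and 5.09 (log2 difference 0.69, limma adjusted p = 0.0437, and 0.249 with counting error). Osm, another gp130 ligand, was lower, at 0.835 against 1.83 and 1.73, on about 4 tumour fragments (limma adjusted p = 0.0390, and 0.484 with counting error). Il4 was at 7.13 in tumour, against 6.49 and 5.66, and was not called, like Ebi3. Il2, Il7 and Il15 were below the filter, at 1.18, 1.76 and 0.426 scaled FPKM in tumour, where lymphoid values were at most 0.69, 0.30 and 0.17. Il6 was listed at 0 in tumour and in lymphoid library 1. Odorant and vomeronasal receptor genes, a gauge of background, averaged 0.266 scaled FPKM in tumour against 0.0100 and 0.0436 in the lymphoid libraries, over 1411 genes. The part of this background in the low values of ligand genes was not tested.

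Downstream of the receptors, Stat3 and Stat5a were called higher and no kinase gene was called. Of 10 kinase and STAT genes, all tested, 2 were higher and 0 lower, against 14.0% and 6.71% of all genes tested (3 and 0 at an unadjusted p under 0.05 by limma), with a median log2 difference of 0.04 against 0.02 for all genes. Stat3, which relays IL-6 and IL-21, was at 31.5 scaled FPKM in the tumour library, against 18.7 and 19.3 in the lymphoid libraries (log2 difference 0.70, limma adjusted p = 0.0457). Stat5a, which relays IL-2, IL-7 and IL-15, was at 8.65 in tumour, against 5.14 and 4.98 (log2 difference 0.67, limma adjusted p = 0.0455). Its close relative Stat5b, at 21.1 against 14.6 and 15.6, missed the threshold (log2 difference 0.46, limma adjusted p = 0.112), and reads shared between these near-identical genes may be split uncertainly. Stat6, the relay of IL-4, was at 17.3 in tumour, against 17.2 and 17.7, and was not called. Jak1 was at 62.7 in tumour, against 72.7 and 68.9, and Jak3 at 13.3 against 15.3 and 14.9, with no call. In the fit with counting error added to all genes, neither was called, at adjusted p = 0.159 for Stat3 and 0.250 for Stat5a.

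Feedback genes were called in both directions. Of 18 inhibitors and phosphatases, all tested, 2 were higher and 3 lower, against 14.0% and 6.71% of all genes tested (4 and 3 at an unadjusted p under 0.05 by limma), and the median log2 difference was 0.01. Socs3, the inhibitor that binds gp130, was at 27.2 scaled FPKM in the tumour library, against 8.73 and 9.11 in the lymphoid libraries (log2 difference 1.51, limma adjusted p = 0.00729). Cish, a STAT5 target that restrains IL-2 signals, was at 12.0 in tumour, against 6.01 and 6.25 (log2 difference 0.86, limma adjusted p = 0.0275). Both stand above both lymphoid libraries. Socs2 was lower, at 2.37 against 6.89 and 6.15, as were Socs5, at 0.469 against 2.33 and 2.41, and Sh2b3, an adaptor that restrains JAK signals, at 1.69 against 6.72 and 7.43. These falls rested on about 19, 4 and 14 tumour fragments. Socs1 was at 10.8 in tumour, against 8.16 and 7.81, and was not called (log2 difference 0.39, limma adjusted p = 0.140), nor were the abundant phosphatase genes Ptprc and Ptpn6. Of these 5 calls 0 held once counting error entered, at adjusted p = 0.0583 for Socs3 and 0.145 for Cish.

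Target genes of STAT5 and STAT3 had 5 higher and 1 lower calls among 23 tested of 25, against 14.0% and 6.71% of all genes tested (6 and 3 at an unadjusted p under 0.05 by limma), with a median log2 difference of 0.06. Bcl6, a repressor that IL-6 and IL-21 induce in follicular helper cells, was at 6.80 scaled FPKM in the tumour library, against 2.50 and 2.29 in the lymphoid libraries (log2 difference 1.20, limma adjusted p = 0.0119). Pim1 and Pim2, kinases that cytokines induce, differed by 0.87 and 1.04 on the log2 scale, and Gzmb, which encodes granzyme B, by 2.64. Gzmb was at 11.4 scaled FPKM in tumour against 0.839 and 1.16, a lymphoid mean of 0.998. It passed the filter only through its tumour value, but with a mean just under the minimum of 1 the filter forced almost no difference. Bcl2l1, which encodes the survival protein BCL-XL and is named after its value was seen, was higher by 0.66 (limma adjusted p = 0.0484), while Osm is the gene called lower. Bcl2, the survival gene that IL-7 maintains, was at 9.61 in tumour, against 9.92 and 8.26, and was also named after its value was seen. Id2 and Junb, the most abundant uncalled targets, differed by -0.75 and 0.56. Once counting error entered, the 5 other calls were lost and that of Gzmb was at adjusted p = 0.0496.

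Regulators of Il7r transcription had 1 lower and 0 higher call among 12 tested, against 6.71% and 14.0% of all genes tested (2 lower and 0 higher at an unadjusted p under 0.05 by limma). Gabpa, which encodes the GABP alpha chain that drives Il7r in T cells, was at 4.33 scaled FPKM in the tumour library, against 8.11 and 7.84 in the lymphoid libraries (log2 difference -0.75, limma adjusted p = 0.0358, and 0.238 with counting error). The T cell factors Ets1 and Tcf7 were not called, at 99.6 and 73.6 in tumour. Signalling adaptors had 0 calls among 8 tested, where 14.0% of all genes tested were higher and 6.71% lower, and 0 at an unadjusted p under 0.05 by limma. Lck was at 80.5 in tumour against 85.9 and 92.0, and the kinase gene Pik3cd at 31.7 against 36.3 and 37.8. Genes of receptor shedding and trafficking had 0 higher and 1 lower call among 9 tested, against 14.0% and 6.71% of all genes tested (2 and 2 at an unadjusted p under 0.05 by limma). That was Rnf41, a ubiquitin ligase gene, at 1.09 against 2.99 and 3.52, on about 7 tumour fragments, while Sorl1 and Cbl were not called.

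**Figure D4:**
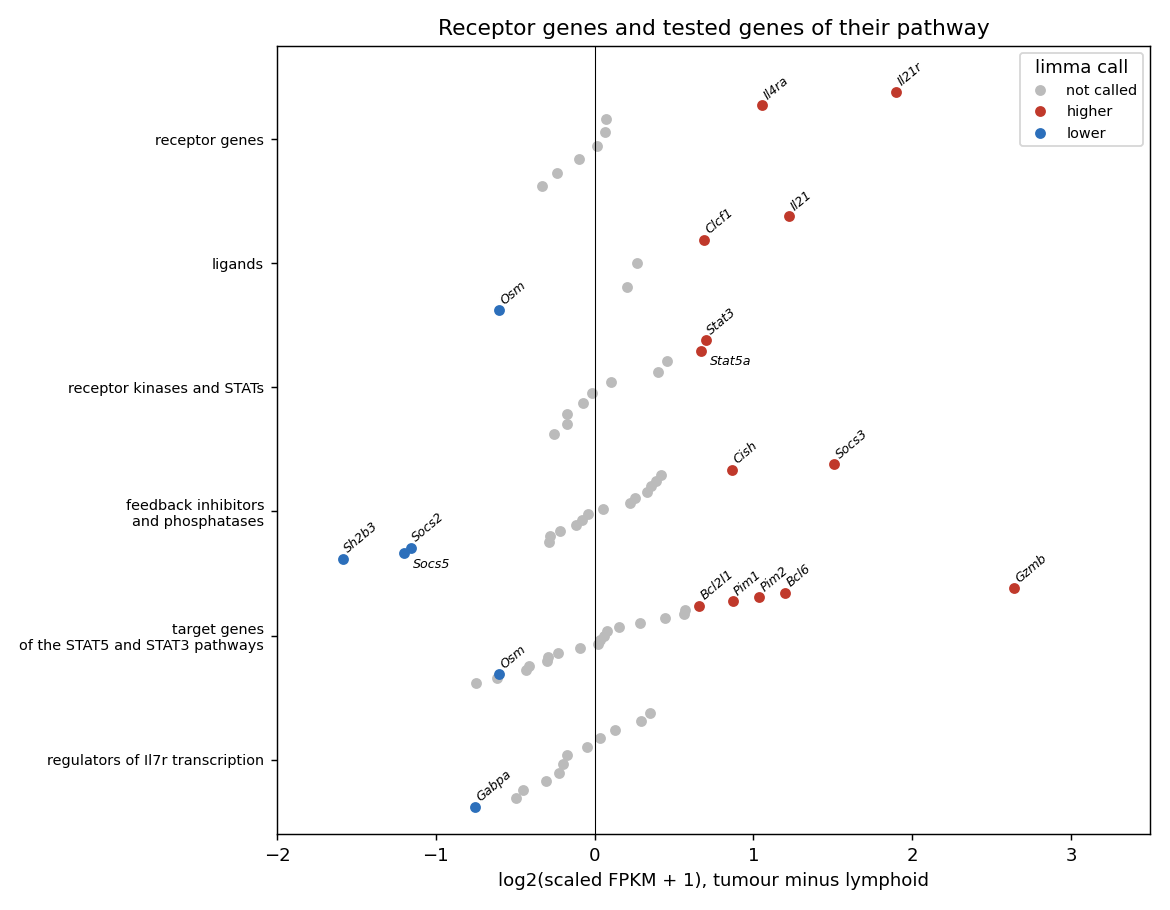
Log2 difference in scaled FPKM + 1, tumour minus lymphoid, of the receptor genes and of the tested genes of their pathway, 1 point a gene, colored by the limma call. Il21r and Il4ra are the called receptor genes, and the called feedback genes lie on both sides, with Socs3 at 1.51 and Sh2b3 at -1.58. These calls hold for median-of-ratios scaling.

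Cells other than CD4 T cells also express some of these receptors, B cells and myeloid cells among them, so their markers are given beside the rises of Il21r and Il4ra. The 7 measured B cell markers summed to 6.62 scaled FPKM in the tumour library, against 2.23 and 2.11 in the lymphoid libraries. Of that, Cd22 held 5.76 in tumour, while Cd79a, Cd79b, Ms4a1 and Pax5 were listed at 0 there. Cd22, the only B cell marker tested, was called higher (log2 difference 1.43, limma adjusted p = 0.00664, and 0.0813 with counting error). The 11 macrophage and monocyte markers summed to 10.6 in tumour, against 1.51 and 1.36, led by Itgam at 3.95 and C1qa at 2.55, while C1qb, C1qc and Mrc1 were listed at 0. Itgam, the only one of them tested, was called higher (log2 difference 1.43, limma adjusted p = 0.0113, and 0.0968 with counting error). It passed the filter only through its tumour value. The 8 dendritic cell markers summed to 4.86, against 2.99 and 2.50, led by Cd74 at 1.34 and Xcr1 at 1.14, with Itgax listed at 0. Cd74, the only dendritic cell marker tested, was not called. The part of these cells in the rises of Il21r and Il4ra was not tested. C1qa rested on about 5 tumour fragments. Odorant and vomeronasal genes, the gauge of background, averaged 0.266 scaled FPKM in tumour against 0.0100 and 0.0436 in the lymphoid libraries. The part of this background in these marker sums, and in those of the next paragraph, was not tested.

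Markers of other lymphocytes moved less evenly. The NK cell markers summed to 23.0 scaled FPKM in the tumour library, against 27.2 and 24.04 in the lymphoid libraries, led by Klrb1c at 13.4 and Klre1 at 2.46, with 0 of 7 at 0 in tumour. Klrb1c carried the lower sum, at 23.6 and 20.1 in the lymphoid libraries, while 5 of the 7 markers lay above both lymphoid libraries. Eomes, 1 of these 5, was called higher, at 1.78 in tumour against 0.609 and 0.724 (limma adjusted p = 0.0240, and 0.322 with counting error). It rested on about 12 tumour fragments and passed the filter only through its tumour value. Cd8a was at 0.503 in tumour, against 0.0647 and 0.0304 in the lymphoid libraries, and Cd8b1 at 4.77 against 0.494 and 0.783. Only Cd8b1 was tested, and it was called higher (limma adjusted p = 0.00607, and 0.119 with counting error), having passed the filter only through its tumour value. The regulatory T cell regulator Foxp3 was at 5.08 in tumour, against 11.3 and 8.93, and was not called (limma adjusted p = 0.0532), while Ctla4 and Tnfrsf18 of the same list of 7 were called higher. With counting error added, Ctla4 and Tnfrsf18 were at adjusted p = 0.0863 and 0.164. The summed list of 7 was 112 in tumour, against 76.1 and 73.4. Melanocyte markers summed to 3.35, against 1.35 and 1.52, led by Pmel at 1.49 and Sox10 at 0.770, with Mlana and Slc45a2 listed at 0. Stromal and endothelial markers summed to 10.3, against 9.83 and 9.05, led by Pecam1 at 7.70 and Pdgfrb at 1.04, with Col1a2, Col3a1 and Dcn at 0. Pmel and Pecam1, the only tested genes of the melanocyte and stromal lists, were not called. Neutrophil markers summed to 1.23, against 0.111 and 0.102, with S100a8, S100a9 and Retnlg at 0. They were led by Mpo at 0.617 and Csf3r at 0.614, on about 3 and 4 tumour fragments. Th1 markers had 2 lower calls, Ifng and Cxcr6, and 0 higher calls among 9 tested, against 6.71% and 14.0% of all genes tested. At an unadjusted p under 0.05 by limma, 3 were lower and 1 higher. Against the same shares, pan T cell markers had 0 calls among 10, with 0 at an unadjusted p under 0.05. With counting error added, Cxcr6 was at adjusted p = 0.159.

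**Figure D5:**
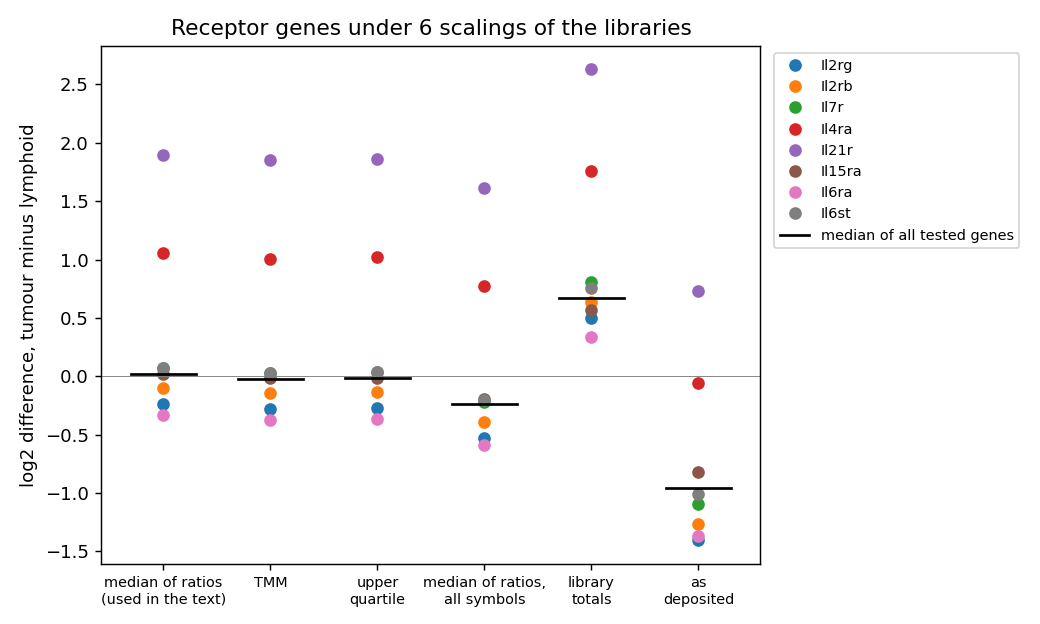
Log2 difference, tumour minus lymphoid, of the 8 receptor genes under 6 ways of scaling the libraries, with a black bar for the median of all tested genes. The whole set moves with that median, from -0.96 as deposited to 0.67 with library totals. Because the shift is common, Il21r and Il4ra keep their place on top under each scaling.

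A change of scaling shifts all genes nearly alike on the log scale. That Il21r and Il4ra keep their place above the other receptor genes under each scaling thus follows by construction, and is no further evidence for that place. Il21r was higher in tumour under each of the 6 scalings, with log2 differences of 0.73 as deposited to 2.63 with library totals, and was called each time. Il4ra was called in 5 of them. The exception is the values as deposited, where its -0.061 lay above the median of all genes tested, -0.96. As deposited 1 of the 8 genes was called higher, beside 4.74% of all genes tested, and the other 6 were called lower, beside 77.8%. With library totals Il7r was called higher (log2 difference 0.81, limma adjusted p = 0.0351), beside 44.1% of all genes tested, with 2.23% lower. With size factors over all symbols 2 of the 8 were higher and 0 lower, beside 9.93% and 16.6% of all genes. With the filter on deposited values the count was again 2 and 0, beside 12.7% and 9.17%. With no filter it was 1 and 0, beside 35.1% and 3.76%.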

How the data were processed

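CD4+ T cells were measured in 3 libraries. Per the labels' protocols, libraries of total RNA kept strand, were depleted of ribosomal RNA and were sequenced in pairs. Per the submitters' processing notes, the authors used mm10, kallisto and DESeq2, in roles that are not stated. The deposited values were taken as FPKM, 1 for each of 23832 gene rows, because the authors' column sums differ between libraries and, per the file headers, genes are named in a tracking_id column, as in Cufflinks tables. The sources used here do not say which program gave them. The unit is thus inferred, and the count test foreseen for the case of count files was not used.

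For 252 symbols listed more than once, the most abundant entry was used. Of 23337 symbols, 21705 matched GENCODE M21 directly and 1255 by an older symbol, for coordinates and for the longest transcript, which converts FPKM to fragments. One fragment was worth the value of FPKM times kilobases shared by the most genes (within 3%). Median-of-ratios factors were taken over 9660 genes whose deposited mean reached 1 FPKM. limma 3.58.1 (R 4.3.3) used a mean-variance trend and a pseudocount of 1, and was tested on simulated data. All simulated libraries varied alike, with no counting error and no difference in depth. That test thus could not check whether the tumour library varies like the lymphoid ones. The fit with counting error added the Poisson variance of the tumour library's estimated fragments, at least 1 a gene, to the variance of each difference. Odorant and vomeronasal genes were averaged without the 2% of highest mean.

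Named genes are the 8 receptors, the up to 4 called genes with the largest differences and the 2 most abundant uncalled genes of each pathway list, a fixed set of signalling genes, the 2 highest markers of each other cell type, and the 3 genes nearest to each called receptor. Ifng, Cxcr6 and Eomes were named after their values were seen. Some genes that this rule names are not reported here. Members, lists and tests were chosen with earlier results of these data known. Alternatives were other scalings, filters and pseudocounts, summed rows, no trend, counting error and leaving out a lymphoid library.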

Additional observations from a re-analysis of the deposited data

How the results depend on the processing

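Genes called higher numbered 1401 and genes called lower 671. They numbered 465 and 7620 with values as deposited, 4591 and 232 with library totals, 277 and 190 at a mean of at least 5, and 153 and 4 with counting error added. With the filter on deposited values and counting error added, chosen after seeing the data, they numbered 368 and 39. With no filter 7364 were higher, and with size factors over all symbols, also chosen later, 1641 were lower. Receptor genes called higher, 2 in the text, numbered 1 as deposited, 1 with no filter and 0 with counting error added, and those called lower, 0 in the text, numbered 6 as deposited. With no filter Il21r had an adjusted p of 0.0676.

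Signs turned under some scalings, which shift all genes together. The cause of the lost calls was not tested. As deposited the log2 difference was -1.09 for Il7r, -0.061 for Il4ra, -0.82 for Il15ra and -1.01 for Il6st. With library totals it was 0.63 for Il2rb, 0.50 for Il2rg and 0.34 for Il6ra. With size factors over all symbols it was -0.22 for Il7r, -0.20 for Il15ra and -0.20 for Il6st, and for Il15ra it was -0.012 with upper quartiles and -0.019 with TMM factors. Of 111 tested comparisons of a receptor gene with an alternative, 92 kept direction and side of the threshold. Other filters, summed rows, counting error and no trend left the log2 difference itself unchanged. Direction could not turn in those comparisons, so the count does not measure robustness.

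Leaving out a lymphoid library gives a value with no test, and no count of calls. Without lymphoid replicate 1 or 2 the log2 difference of Il21r was 1.66 to 2.13 and that of Il4ra 1.02 to 1.08, while Il2rb, Il7r, Il15ra and Il6st took 1 sign without the first and the other without the second. No paired analysis was possible because the tumour group has 1 library. Count models were not run, since the values are not counts. Il15ra rested on about 12 tumour fragments, and 12 of the 17 ligand genes were under the filter and not tested.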

Other observations

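Several receptor and ligand genes of these families that were near 0 in the lymphoid libraries had values in the tumour library, all below the filter. Lifr, the LIF receptor chain that works with gp130, was at 1.65 scaled FPKM in tumour, against 0.0967 and 0.0668 in the lymphoid libraries, on about 30 tumour fragments. Il9r, the IL-9 receptor chain that works with the common gamma chain, was at 1.85, against 0.390 and 0.459. Il7 was at 1.76 on about 16 fragments, against 0.207 and 0.303, and Lif at 1.36 on about 10, against 0.0960 and 0.156. The genes with values are not all of the family, as Il13ra1, Il13ra2, Il9, Tslp, Ctf1, Il27 and Il6 were listed at 0 in tumour. These levels stand beside an odorant and vomeronasal mean of 0.266 scaled FPKM in tumour, against 0.0100 and 0.0436 in the lymphoid libraries. That background was thus also higher in tumour, and its part in these values was not tested.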
